A study of Homo sapiens with 6 samples.

Results

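The genes described here are 10 genes of the Hippo pathway: the coactivator genes YAP1 and WWTR1 (which encodes TAZ), the DNA-binding partner gene TEAD1, the kinase genes LATS1 and LATS2, the target genes CCN1, CCN2, ANKRD1 and AMOTL2, and the LIM protein gene AJUBA. They were chosen by gene symbol, and all 10 were found among the 19923 genes of the deposited table. RNA was sequenced from BT549, an established human breast cancer cell line whose labels give mammary gland epithelium as its tissue, in 3 control libraries and 3 libraries labelled as treated with ENL. The labels give no dose, duration or vehicle and do not spell out ENL, so it is used as a group name only. Nor do they state separate cultures for the libraries of a group, so the p-values measure only a spread between samples that may be technical. The comparison asks whether the level of each gene differed between ENL-treated and control cells.

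The Hippo pathway is a kinase cascade that ties growth to cell contact, cell shape and matrix stiffness. The MST kinases, with the scaffold SAV1, activate the LATS kinases, which work with MOB1. LATS kinases phosphorylate YAP and TAZ, which then stay in the cytoplasm or are degraded. YAP and TAZ that are not phosphorylated enter the nucleus and bind TEAD factors at target genes such as CCN1 and CCN2, which encode secreted matricellular proteins. Several targets, LATS2 and AMOTL2 among them, encode inhibitors of YAP and TAZ and so close feedback loops. RNA levels do not measure phosphorylation or location of these proteins.

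Deposited totals were 74457932 to 85310759 units per library, and 14086 genes were tested. About 4 units to 1 sequenced fragment were inferred from the low values. Genes for cytosolic ribosomal proteins took 7.84% to 8.25% of the units in control and 10.9% to 13.4% in ENL, and mitochondrially encoded genes took 9.73% to 10.9% and 7.71% to 8.64%. On the second principal component ENL library 3 scored -32.6, and ENL libraries 1 and 2 scored 9.75 and 18.5. The 6 mesenchymal markers summed gave 3354 to 4063 CPM (the normalised count, scaled by library size and the trimmed mean, or TMM, factor) in control and 6133 to 7030 CPM in ENL. Most of this sum came from VIM, with means of 2744 CPM in control and 5949 CPM in ENL. Of the 6 markers, VIM, FN1 and CDH2 rose (log2 fold changes of 1.12, 0.42 and 0.88), SPARC fell (-1.84), and ZEB1 and AXL were not called. The 8 epithelial and luminal markers summed gave 69.1 to 82.1 CPM in control and 87.0 to 108 CPM in ENL, and of the 6 tested KRT8 rose (log2 fold change 1.27) and 5 were not called. In every library CDH1, EPCAM, KRT19 and ESR1 were at or below 1.01 CPM and PGR at 0, whereas KRT8, KRT18 and GATA3 were at 13.2 to 40.5 CPM. Markers of leukocytes and endothelium, 6 genes summed, gave 61.0 to 78.4 CPM in control and 59.6 to 67.6 CPM in ENL, most of it from CD68. VWF was at 5.45 to 8.54 CPM, CDH5 was at 0 in all libraries, and PTPRC, CD3E and PECAM1 did not exceed 1.20 CPM. The part of these shares, of the markers and of ENL library 3 in the values below was not tested, except where a value without that library is given.

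TEAD factors recognise the letters GGAATG, read on either strand. RefSeq promoter windows (GRCh38.p14), of which the 250 bases before the annotated start were used, were matched for 8 of the 10 genes. CCN1 and TEAD1 had no window and so were not searched. More than 1 start was listed for WWTR1, LATS1, AMOTL2 and AJUBA. The motif lay in at least 1 window of 5 genes, YAP1, CCN2, ANKRD1, AMOTL2 and AJUBA. Over all genes 11.9% of 34788 such windows held it. That share is per window and not per gene, and a gene with several windows has more places for a match. The CCN2 window held 3 copies, as did 0.0834% of all windows, and the ANKRD1 window held 2, a number reached by 0.946%. A match is a description of letters and not a measured binding site. These 3 windows are shown because they belong to target genes with different outcomes in the counts, a rise, a level near 0 and a fall. The motif is in capitals, and each window is written 5' to 3' on the strand of its gene, here the minus strand: CCN2 at chr6:131951373-131951622, ANKRD1 at chr10:90921088-90921337 and, for AMOTL2, the start with a match at chr3:134374448-134374697, where the motif lies on the opposite strand and is read as its reverse complement.
CCN2: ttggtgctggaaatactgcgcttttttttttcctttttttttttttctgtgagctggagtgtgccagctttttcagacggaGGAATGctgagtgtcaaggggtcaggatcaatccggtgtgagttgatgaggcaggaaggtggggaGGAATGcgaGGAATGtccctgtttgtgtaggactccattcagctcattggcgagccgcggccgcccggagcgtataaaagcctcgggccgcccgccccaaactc
ANKRD1: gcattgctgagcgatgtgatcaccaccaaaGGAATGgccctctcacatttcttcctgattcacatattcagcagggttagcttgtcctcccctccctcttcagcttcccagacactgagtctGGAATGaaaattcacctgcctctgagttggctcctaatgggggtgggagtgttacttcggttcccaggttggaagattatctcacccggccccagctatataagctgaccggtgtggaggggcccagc
AMOTL2: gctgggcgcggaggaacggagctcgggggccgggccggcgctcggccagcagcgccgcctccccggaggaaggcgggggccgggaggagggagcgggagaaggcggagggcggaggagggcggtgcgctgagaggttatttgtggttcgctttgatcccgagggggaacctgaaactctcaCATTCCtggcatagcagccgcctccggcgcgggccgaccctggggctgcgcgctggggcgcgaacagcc

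The copies in CCN2 began 169, 104 and 95 bases before the start, so the nearest copies to the start lay side by side. In ANKRD1 they began 220 and 128 bases before it. AMOTL2 had its copy 69 to 64 bases before the start, AJUBA 59 to 54 bases before its second listed start, and YAP1 162 to 157 bases before its start. No match was found in the windows of WWTR1, LATS1 and LATS2, which says only that these letters are not in those 250 bases.

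**Figure D1:**
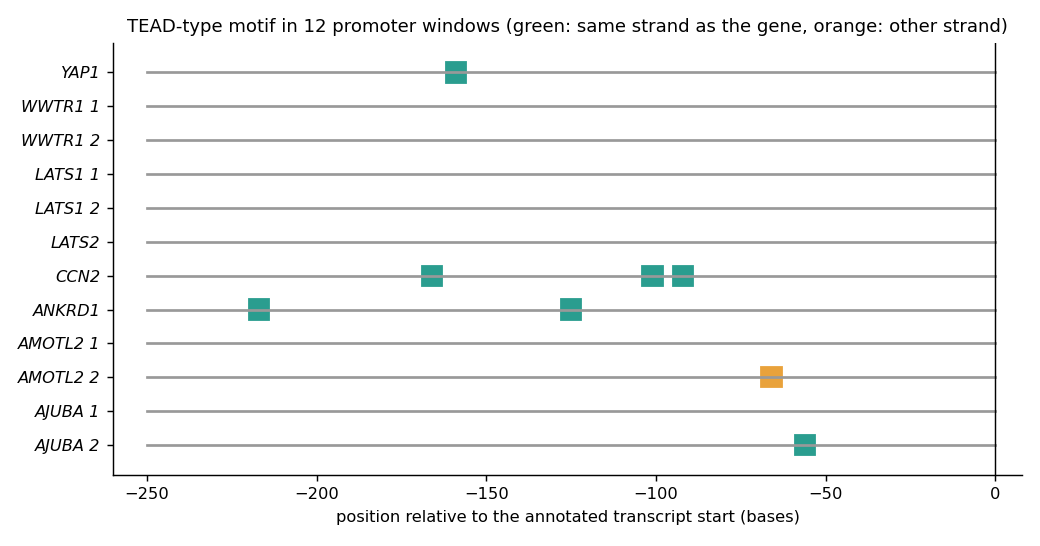
Position of the TEAD-type motif in the 12 promoter windows of 8 genes. The horizontal axis is the distance in bases from the annotated transcript start, each grey line is a window of 250 bases, and each box is 1 match. CCN2 holds 3 boxes and ANKRD1 2, and YAP1 and 1 window each of AMOTL2 and AJUBA hold 1.

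Among the 10 genes, CCN1, CCN2 and LATS1 rose in ENL and AMOTL2 fell. CCN1 was 2.47-fold higher, CCN2 1.33-fold and LATS1 1.31-fold, and AMOTL2 was at 62.8% of its control level (n = 3 per group). YAP1, WWTR1, TEAD1, LATS2 and AJUBA did not pass the test. ANKRD1 was close to 0 and did not reach the limit for testing. By the quasi-likelihood test of edgeR, with p-values adjusted over all genes tested by Benjamini and Hochberg, 3 of 9 tested genes were thus higher, 1 was lower and 5 were not called. Of all 14086 genes, 20% were called higher, 18.4% lower and 38.4% in either direction, so 4 of 9 called is near the background share. The 3 ENL libraries lay wholly above or below the 3 control libraries for 5 of the 9 genes, where 54% of all tested genes had groups that did not overlap. The median log2 fold change was -0.01 over the 9 genes and -0.02 over all tested genes.

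**Figure D2:**
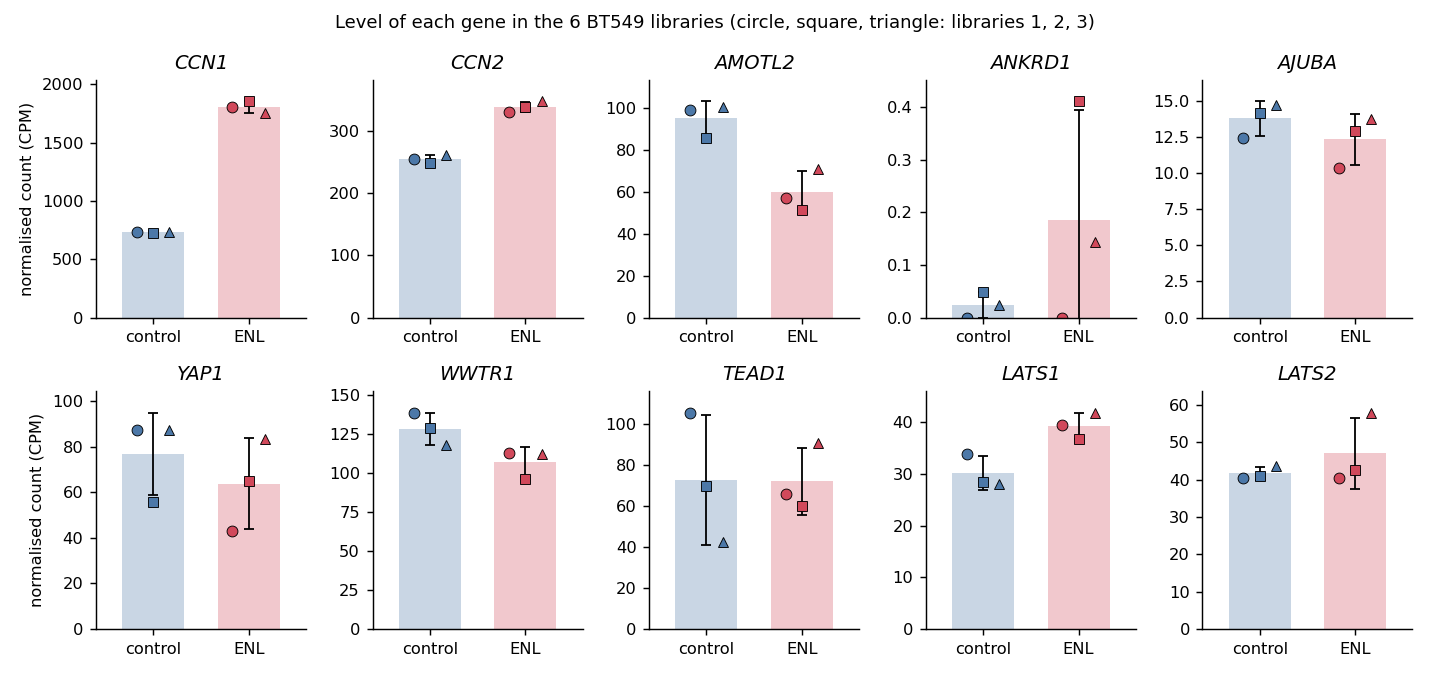
Level of each of the 10 genes in each library. The vertical axis is the normalised count in CPM from 0, points are libraries, bars are group means and error bars are the SD (n = 3, drawn only above 0 for ANKRD1). The ENL points of CCN1, CCN2 and LATS1 lie above all control points and those of AMOTL2 and WWTR1 below them. The points of YAP1, TEAD1, LATS2 and AJUBA mix.

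CCN1 (chromosome 1, 85580761 to 85583962, plus strand, GRCh38) encodes CYR61, a secreted protein that binds integrins and is a direct target of YAP and TEAD. Its level was 734, 723 and 736 CPM in control libraries 1, 2 and 3, and 1802, 1853 and 1753 CPM in ENL libraries 1, 2 and 3. The libraries of a group were close together, differing by a factor of 1.02 in control and 1.06 in ENL, and the groups were far apart. In the fit this was a log2 fold change of 1.30 ± 0.07 (SE, n = 3 per group, edgeR adjusted p = 5.38e-05). CCN1 passed the threshold under each of the 15 other settings tried, with log2 fold changes of 1.09 to 1.34.

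CCN2 (chromosome 6, 131948176 to 131951373, minus strand) encodes CTGF, a matricellular protein known for its part in fibrosis, and carries the 3 motif copies shown above. It was at 254, 248 and 262 CPM in the control libraries and at 330.0, 338 and 347 CPM in the ENL libraries. All ENL libraries were above all control libraries, by a smaller step than for CCN1. CCN2 had a log2 fold change of 0.41 ± 0.07 (SE, n = 3 per group, edgeR adjusted p = 0.00363). The call was lost when libraries were scaled by their totals alone (log2 fold change 0.20, adjusted p = 0.0666), a scale on which the median of all tested genes was -0.23. An antisense transcript shares 195 exon bases with CCN2, and no label or header says whether the counting used strand.

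The fitted rise was larger for CCN1 than for its paralog CCN2, with 95% intervals of 1.13 to 1.47 and 0.25 to 0.57 on the log2 scale. The log2 ratio of CCN2 to CCN1, which does not depend on scaling between libraries, was -1.53, -1.54 and -1.49 in control and -2.45, -2.46 and -2.34 in ENL. The ENL ratios were all below the control ratios, with a difference of -0.89 between the group means. An exact two-sided permutation test gave p = 0.1, the smallest value that 3 against 3 libraries allow.

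AMOTL2 (chromosome 3, 134355874 to 134375479, minus strand) encodes an angiomotin, a junction protein that binds YAP and holds it outside the nucleus, and is itself a YAP target. Control libraries 1, 2 and 3 had 99.0, 85.8 and 100.3 CPM, and ENL libraries 56.9, 51.2 and 70.9 CPM. Every ENL library was below every control library, with ENL library 3 nearest to control. This gave a log2 fold change of -0.67 ± 0.14 (SE, n = 3 per group, edgeR adjusted p = 0.00869), and -0.80 without ENL library 3 (adjusted p = 0.00203). AMOTL2 passed the threshold under all 15 other settings, at -0.87 to -0.57. A pseudogene on the same strand, RPL39P5, shares 187 exon bases with it. Of the target genes CCN1, CCN2 and AMOTL2, 2 thus rose and 1 fell, and LATS2, described with its paralog, was not called.

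ANKRD1 (chromosome 10, 90912096 to 90921276, minus strand) encodes a cardiac ankyrin repeat protein and is a widely used readout of YAP activity. Its deposited units were 0, 4 and 2 in control and 0, 28 and 12 in ENL. At the inferred 4 units per fragment this is at most 7 fragments in any library. The highest values were those of ENL libraries 2 and 3, but ENL library 1 was at 0 like control library 1. No fold change is given because the gene did not reach the limit for testing. So few fragments do not show whether its level differed between the groups.

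AJUBA (chromosome 14, 22971174 to 22982642, minus strand) encodes a LIM domain protein that binds LATS kinases at junctions and restrains them. It was at 12.4, 14.2 and 14.7 CPM in control and 10.3, 12.9 and 13.7 CPM in ENL, and the groups overlapped. The log2 fold change of -0.16 ± 0.15 (SE, n = 3 per group, edgeR adjusted p = 0.422) had a 95% interval from -0.51 to 0.19.

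YAP1 (chromosome 11, 102110461 to 102233423, plus strand), the coactivator gene that gives the pathway its main output, was measured with a wide spread. Control libraries 1, 2 and 3 had 87.3, 55.8 and 87.2 CPM, and ENL libraries 43.2, 64.7 and 83.2 CPM. The groups overlapped, and the lowest and highest libraries differed by a factor of 1.57 within control and 1.93 within ENL. The log2 fold change was -0.27 ± 0.28 (SE, n = 3 per group, edgeR adjusted p = 0.491), with a 95% interval from -0.96 to 0.42. Without ENL library 1 it was -0.05 (adjusted p = 0.889), and without ENL library 3 it was -0.49 (adjusted p = 0.231). An antisense transcript shares 628 exon bases with YAP1.

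WWTR1 (chromosome 3, 149517235 to 149736714, minus strand), whose product TAZ is the paralog of YAP, was at 138, 129 and 118 CPM in control and at 113, 96.0 and 112 CPM in ENL. All 3 ENL libraries were below the control libraries. The log2 fold change of -0.26 ± 0.10 (SE, n = 3 per group, 95% interval -0.50 to -0.03) did not pass after adjustment (edgeR adjusted p = 0.0768). It passed with upper-quartile scaling (-0.35, adjusted p = 0.0280), with library totals (-0.47, adjusted p = 0.0157) and when only genes with 10 CPM or more in 3 libraries were kept (-0.30, adjusted p = 0.0448). The antisense gene WWTR1-AS1 shares 795 exon bases with it.

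Relative to each other, YAP1 and WWTR1 gave no separation of the groups. The log2 ratio of YAP1 to WWTR1 was -0.66, -1.21 and -0.43 in control and -1.38, -0.57 and -0.43 in ENL, with a difference of -0.03 between means (exact two-sided permutation p = 1, where 0.1 is the smallest possible). Without control library 1, control library 3 or ENL library 1 the difference was 0.03, 0.14 or 0.27, so its sign rests on single libraries.

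TEAD1 (chromosome 11, 12674591 to 12944483, plus strand) encodes a DNA-binding factor through which YAP and TAZ act. It had the widest spread of the 9 tested genes in control, at 105.7, 70.0 and 42.4 CPM, a factor of 2.49 between libraries. ENL libraries were at 65.8, 59.9 and 90.9 CPM and lay within the control range. TEAD1 had a log2 fold change of -0.01 ± 0.35 (SE, n = 3 per group, edgeR adjusted p = 0.987), and its 95% interval from -0.87 to 0.85 covers changes of either sign. Without control library 1 the value was 0.36 (adjusted p = 0.377), and without control library 3 it was -0.28 (adjusted p = 0.445).

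LATS1 (chromosome 6, 149658153 to 149718256, minus strand), a kinase gene whose product inactivates YAP and TAZ, was at 33.9, 28.5 and 28.1 CPM in control and 39.4, 36.8 and 41.8 CPM in ENL. The groups did not overlap, and control library 1 was the nearest to ENL. The log2 fold change was 0.38 ± 0.11 (SE, n = 3 per group, edgeR adjusted p = 0.0310). The call was lost with upper-quartile scaling (0.30, adjusted p = 0.0653) and library totals (0.18, adjusted p = 0.285), and without control library 2 (adjusted p = 0.104), control library 3 (0.109) or ENL library 1 (0.0748). An antisense transcript shares 408 exon bases with LATS1.

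LATS2 (chromosome 13, 20973032 to 21061547, minus strand), the second LATS kinase gene and a YAP target, was at 40.4, 41.0 and 43.7 CPM in control and 40.5, 42.7 and 58.0 CPM in ENL. Control libraries were tight, and ENL library 3 was the one high value. The log2 fold change was 0.17 ± 0.15 (SE, n = 3 per group, edgeR adjusted p = 0.381, 95% interval -0.17 to 0.52), and 0.01 without ENL library 3. The log2 ratio of LATS2 to LATS1 was 0.26, 0.53 and 0.64 in control and 0.04, 0.22 and 0.47 in ENL. These ranges overlapped, with a difference of -0.23 between means (exact two-sided permutation p = 0.2, smallest possible 0.1), so the rise of LATS1 was not shown to differ from the change of LATS2.

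**Figure D3:**
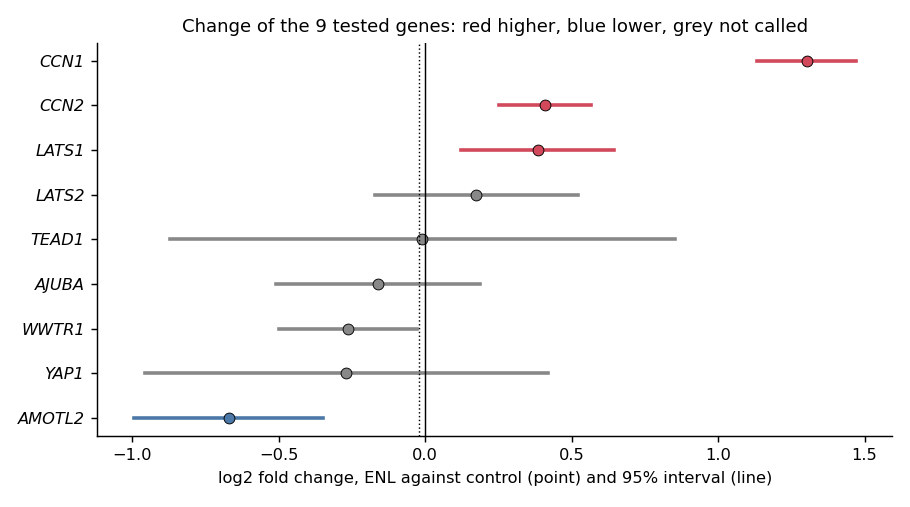
Log2 fold change of the 9 tested genes, ENL against control, with 95% intervals. Red genes were called higher, the blue gene lower and grey genes were not called. The solid line is 0 and the dotted line the median of all tested genes, -0.02. The intervals of TEAD1 and YAP1 are the widest and that of CCN2 is the narrowest.

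**Figure D4:**
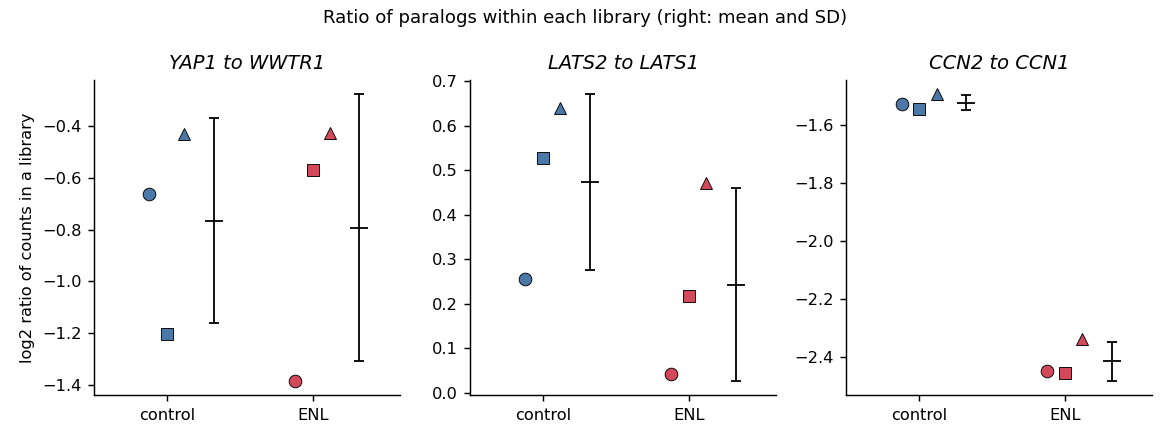
Log2 ratio of paralogs within each library for YAP1 to WWTR1, LATS2 to LATS1 and CCN2 to CCN1. Points are libraries, and the mark to the right of each group is the mean with its SD (n = 3). The vertical axes do not start at 0 and differ between panels. The groups separate for CCN2 to CCN1 and overlap for the other ratios.

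The genes also differed in how well replicate libraries matched. The SD of log2 CPM between control libraries was 0.01 for CCN1, larger than in only 1.6% of genes at 5 CPM or more, and 0.04 for CCN2. For TEAD1 it was 0.66 and for YAP1 0.37, larger than in 96.9% and 92.2% of those 10779 genes, whose median was 0.10. In ENL the SD was 0.04 for both CCN genes, 0.47 for YAP1 and 0.31 for TEAD1, where the median gene had 0.17. TEAD1 and YAP1 thus had the least precise values of the tested genes, and the 2 CCN genes the most precise.

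Divided by the length of the longest annotated coding transcript, levels can be ordered between genes. In control the order was CCN1 with 319 CPM per kilobase, CCN2 with 109, WWTR1 with 25.5, AMOTL2 with 21.0, YAP1 with 14.2, TEAD1 with 8.57, LATS2 with 7.57, LATS1 with 4.01, AJUBA with 3.23 and ANKRD1 with 0.0123. The ranges of libraries overlapped between YAP1 and TEAD1 and between TEAD1 and LATS2, and other neighbours were apart. In ENL, CCN1 reached 787 CPM per kilobase and CCN2 145, while AMOTL2 came down to 13.2 and its range overlapped that of YAP1 (11.8). The YAP1 range, 8 to 15.4, also overlapped those of LATS2 (7.36 to 10.5) and TEAD1 (7.07 to 10.7). LATS2 and TEAD1, with means of 8.54 and 8.52, could not be ordered there. The longest transcript need not be the one expressed. Over the 6 CCN genes together, CCN1 made up 72.5% to 72.9% of the level per kilobase in control and 82.0% to 83.2% in ENL. TEAD1 made up 10.2% to 23.4% of the summed TEAD1 to TEAD4 level in control and 11.6% to 18.3% in ENL, and the summed level was 49.2 to 53.3 CPM per kilobase in control and 56.6 to 61.2 in ENL. These sums were chosen after values were seen and were not tested.

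Among the 3 remaining TEAD genes and the 4 VGLL genes, whose products bind TEAD factors as YAP and TAZ do, 5 were tested, 3 rose and 0 fell (0 also at an unadjusted p below 0.05 in edgeR, in DESeq2 and in limma-voom), and among all genes 20% were higher and 18.4% lower. Their median log2 fold change was 0.38, against -0.02 for all genes. TEAD3 rose by 0.80 ± 0.14 on the log2 scale (SE, n = 3 per group, edgeR adjusted p = 0.00419) from 12.1, 10.3 and 13.5 CPM to 20.9, 22.1 and 19.3 CPM. TEAD4 rose by 0.38 ± 0.09 (adjusted p = 0.0144) and VGLL3 by 0.74 ± 0.20 (adjusted p = 0.0275). The TEAD4 call was lost with library totals (adjusted p = 0.144) and without control library 3 (0.0651). The VGLL3 call was lost with library totals (0.0992), with the replicate number as a block (0.0531) and without control library 1, 2 or 3 or ENL library 1 (0.0593 to 0.0834).

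Of 17 upstream kinases and their cofactors, all tested, 4 rose, 3 fell and 10 were not called, near the 38.4% called among all genes, with a median of -0.01. TNIK, a kinase of the MAP4K family, rose by 1.13 ± 0.14 (SE, n = 3 per group, edgeR adjusted p = 0.00115), MOB1B, a LATS cofactor gene, by 0.92 ± 0.14 (adjusted p = 0.00235) and STK3, which encodes MST2, by 0.41 ± 0.09 (adjusted p = 0.00946). The fourth riser, named after its values were seen, was STK4, which encodes MST1. It was at 16.0, 14.6 and 18.9 CPM in control and at 137, 53.8 and 31.8 CPM in ENL, where libraries differed widely among themselves. Its log2 fold change was 2.17 ± 0.55 (adjusted p = 0.0264), and the call was lost with the replicate block (0.0583) and without control library 1, 2 or 3 (0.0772 to 0.0976). Without ENL library 1 the log2 fold change of STK4 was 1.38 (adjusted p = 0.0104).

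TAOK2, a kinase that activates MST, fell from 88.0, 90.3 and 96.6 CPM to 29.1, 33.3 and 33.1 CPM, a log2 fold change of -1.52 ± 0.09 (SE, n = 3 per group, edgeR adjusted p = 7.86e-05). MAP4K4, which can activate LATS, fell by 0.65 ± 0.12 (adjusted p = 0.00609). MOB1A, the paralog of MOB1B, fell by 0.48 ± 0.12 (adjusted p = 0.0159, lost without control library 1 at 0.0611), so the MOB1 paralogs were called in opposite directions. MOB1B shares 199 exon bases with DCK on the same strand, which leaves its value uncertain. STK3 lost its call with library totals (adjusted p = 0.147).

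Of 16 membrane and junction regulators, 1 rose, 4 fell and 11 were not called, where 20% of all genes were higher and 18.4% lower, with a median of -0.12. FAT1, a giant protocadherin upstream of the Hippo kinases, fell by 1.04 ± 0.08 on the log2 scale (SE, n = 3 per group, edgeR adjusted p = 0.000202), from 83.3, 75.4 and 80.2 CPM to 38.3, 37.9 and 40.1 CPM. AMOTL1, the angiomotin paralog of AMOTL2, fell by 0.65 ± 0.12 (adjusted p = 0.00608), from 82.2, 74.6 and 78.8 CPM to 42.5, 50.4 and 57.1 CPM. AMOT was below 0.5 CPM in every library, so both angiomotin genes at higher levels fell. WWC3 rose by 0.50 ± 0.11 (adjusted p = 0.0118), a call lost with library totals (0.112). WWC1, which encodes KIBRA and was named after its values were seen, fell by 0.34 ± 0.11 (adjusted p = 0.0408), a call lost without any 1 of the 6 libraries (0.0503 to 0.132), with the replicate block (0.0802) and without a filter on low counts (0.0610).

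The STRIPAK complex carries a PP2A phosphatase that removes phosphate from MST kinases. Of its 13 tested genes 5 rose, 3 fell and 5 were not called, beside 20% of all genes higher and 18.4% lower, with a median of 0.16. FGFR1OP2 rose by 0.98 ± 0.10 (SE, n = 3 per group, edgeR adjusted p = 0.000523) and PPP2R1A, the PP2A scaffold subunit gene, by 0.45 ± 0.09 (adjusted p = 0.00699). STRN and STRN4, named after their values were seen, also rose, with calls lost without control library 1, 2 or 3 or ENL library 1 for STRN (0.0599 to 0.106) and without control library 1 or 2 for STRN4 (0.0570 to 0.0648). Log2 fold changes of the fallers were -0.43 ± 0.09 for SIKE1 (adjusted p = 0.0115), -0.87 ± 0.22 for STRIP2 (0.0210) and -0.28 ± 0.08 for PPP2CA, the PP2A catalytic subunit gene (0.0315). STRIP2 lost its call without control library 1, 2 or 3 or ENL library 1 (0.0535 to 0.0609). PPP2CA lost its call without control library 1, 2 or 3 or ENL library 1 or 2 (0.0573 to 0.104). The STRN and STRN4 calls were also lost with library totals and with upper-quartile scaling.

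Beyond the CCN genes, AMOTL2, LATS2 and ANKRD1, 17 further genes of a commonly used YAP and TAZ target signature were measured. Of these 6 rose, 4 fell and 7 were not called, with a median log2 fold change of 0.12. Among all genes 20% were higher and 18.4% lower, so the calls in the signature went both ways as they did over all genes. The largest rise was that of GADD45A, a stress-induced growth arrest gene, from 76.9, 78.5 and 69.1 CPM to 296, 293 and 246 CPM, a log2 fold change of 1.90 ± 0.10 (SE, n = 3 per group, edgeR adjusted p = 5.08e-05). NUAK2, a kinase gene, rose by 0.87 ± 0.11 (adjusted p = 0.00154) and IGFBP3, an IGF-binding protein gene, by 0.48 ± 0.06 (adjusted p = 0.00155). RBMS3, FOXF2 and MYOF were the other risers.

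By adjusted p the fallers in the signature were led by NT5E, which encodes the ectonucleotidase CD73, from 450, 412 and 426 CPM to 215, 199 and 233 CPM, a log2 fold change of -0.99 ± 0.09 (SE, n = 3 per group, edgeR adjusted p = 0.000293). DOCK5, a Rac exchange factor gene, fell by 1.25 ± 0.15 on the log2 scale (adjusted p = 0.00115) and ASAP1, an Arf GTPase-activating protein gene, by 0.77 ± 0.16 (adjusted p = 0.00808). The fourth was CRIM1, whose call was lost without control library 1, 2 or 3 or ENL library 1 or 2 (0.0739 to 0.123). MYOF lost its call with library totals (0.197) and without control library 1, 2 or 3 (0.0602 to 0.0785). RBMS3, FOXF2, MYOF and CRIM1 were named after their values were seen. PTPN14, which belongs to this signature and to the junction regulators, was not called, at 0.12 ± 0.10 on the log2 scale (adjusted p = 0.379). In the RefSeq windows the TEAD motif was found for 5 of the 12 signature genes that matched, AXL, FOXF2, PTPN14, NUAK2 and TGFB2. This too is a count per gene, whereas the 11.9% over all genes is a share of windows.

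**Figure D5:**
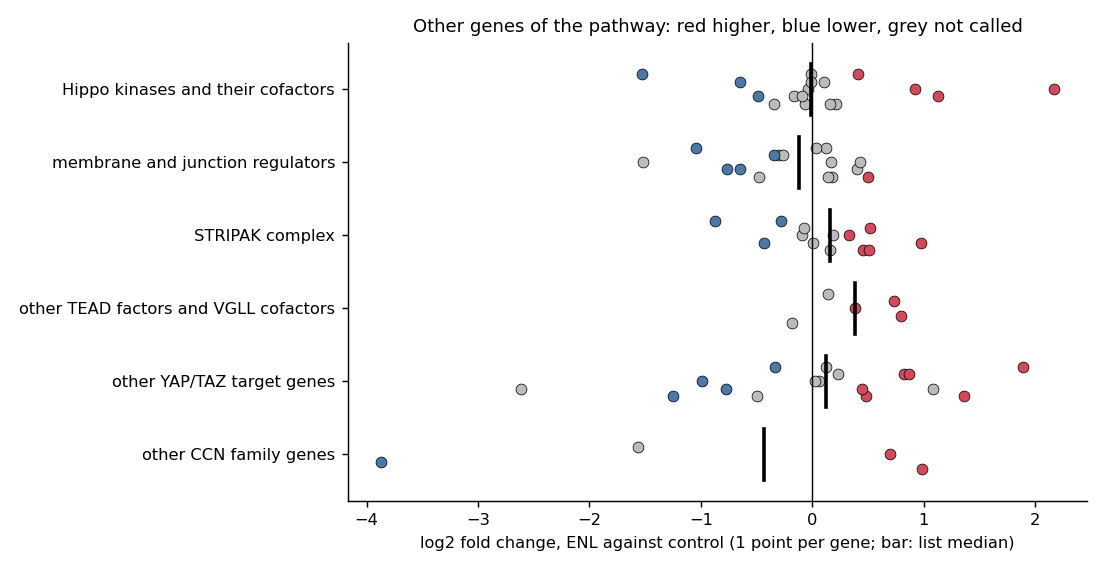
Log2 fold change of each tested gene in 6 lists of pathway genes, 1 point per gene, with the list median as a bar. Red points were called higher, blue points lower and grey points were not called. All lists but that of TEAD and VGLL genes hold both red and blue points.

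Of the other CCN genes, 2 rose and 1 fell among 4 tested, with a median of -0.44, where 38.4% of all genes were called in either direction. The median takes in CCN6, named after its values were seen, which did not exceed 0.482 CPM in any library. CCN6 was not called (log2 fold change -1.57 ± 0.98, SE, n = 3 per group, edgeR adjusted p = 0.246). Summed, the 4 genes gave 24.6 to 30.1 CPM in control and 44.1 to 46.05 CPM in ENL. CCN3 (NOV) rose from 19.2, 20.3 and 20.2 CPM to 40.0, 37.2 and 40.8 CPM, a log2 fold change of 0.98 ± 0.09 (SE, n = 3 per group, edgeR adjusted p = 0.000349). CCN5 rose by 0.70 ± 0.20 (adjusted p = 0.0297), a call lost with library totals (0.0711) and without control library 1, 2 or 3 or ENL library 1 or 2 (0.0524 to 0.0980). CCN4 (WISP1) was at 6.94, 5.71 and 0.824 CPM in control and at 0.278, 0.352 and 0.289 CPM in ENL, so control library 3 was much nearer to ENL than the other controls were. Its log2 fold change was -3.87 ± 0.81 (adjusted p = 0.0120), a call lost in limma-voom (adjusted p = 0.190) and without ENL library 1 (0.0516).

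The genes with the profile most like that of CCN2, by the root mean square difference over the 6 libraries of log2 CPM relative to control, were HNRNPL (0.025), RAB2B (0.029) and FBXO7 (0.030), out of 10770 genes. Those most like YAP1 were ATP6V0A1 (0.123), BRSK2 (0.140) and TTC21B (0.156), which were further from YAP1 than the first 3 were from CCN2.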

How the data were processed

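RNA sequencing covered 6 BT549 libraries, 3 control and 3 ENL, grouped by title. Per the labels' protocols, mRNA libraries were built from RNA above set limits of quantity and quality. Per the submitters' processing notes, hg38 and the tools STAR, StringTie, FastQC and DESeq2 were used, without versions or roles. For annotation and use of strand, the sources used here say nothing. The authors' deposited table holds an estimated count per gene. Its values are whole numbers, so nothing was rounded. In each library 70.8% to 73.1% of the values from 4 to 43 were a multiple of 4 or exceeded one by 1. Evenly spread values would also meet this rule often, though less so. From this, 1 fragment was taken to be worth about 4 units, a conversion that the sources used here do not state. Low values would then carry more counting error than they show.

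After filterByExpr (minimum count 10) and TMM scaling, the groups were compared by the robust, two-sided quasi-likelihood F test of edgeR, with the group alone in the model, Benjamini-Hochberg adjustment over 14086 genes and a threshold of 0.05. The 5837 other genes, ANKRD1 among them, were not tested. Intervals are 95% intervals from the standard error and its degrees of freedom. Versions were edgeR 4.0.16, DESeq2 1.42.0 and limma 3.58.1 under R 4.3.3. No pair of libraries within a group held values as close as a library deposited in duplicate would, with a chi-square per degree of freedom of at least 21.2 after division by 4. All 6 were therefore counted, which does not show that they came from separate cultures. Alternatives were other scalings, tests and filters, counts divided by 4, a replicate block and each library left out.

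Positions and exon overlaps come from GENCODE 29 (GRCh38), to which 19811 of 19923 symbols matched, and none of the genes named as overlapping the 10 genes is in the deposited table. The 10 genes and the lists were chosen with earlier results of these data known. The text names all 10 genes, up to 3 genes per direction and list with the smallest adjusted p, PTPN14, marker genes, and the 3 genes most like CCN2 and YAP1 (at least 5 CPM, pseudocount 0.5). Some genes that this rule names are left out of the text.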

Additional observations from a re-analysis of the deposited data

How the results depend on the processing

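Of 1186 values of single genes under the alternatives, 1093 kept their call, 66 lost it, 27 gained one and 0 were called in the opposite direction. With scaling by library totals 1804 genes were higher and 3996 lower (2819 and 2585 with TMM), 1 of the 9 tested genes was higher and 2 were lower, 0 junction regulators were higher (0 also at an unadjusted p below 0.05, and 2 in the DESeq2 Wald test), and 2 STRIPAK, 1 TEAD or VGLL and 1 other CCN gene were higher. With upper-quartile scaling 2 of the 9 genes were lower and 3 STRIPAK genes higher. With at least 10 CPM in 3 libraries 2 of the 9 were lower, and of the other CCN genes 1 was higher and 0 lower. limma-voom called 0 other CCN genes lower (0 also at an unadjusted p below 0.05). The DESeq2 Wald test and counts divided by 4 each called 2 junction regulators higher. The cause of these shifts was not tested, except that fewer genes are tested under the stricter filter.

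With 1 library left out, 2072 to 3156 genes were higher and 1743 to 2877 lower, and 2 to 3 of the 9 genes were higher and 1 lower. Higher and lower counts were 3 to 4 and 2 to 3 for kinases, 1 to 3 and 3 to 4 for junction regulators, 3 to 6 and 1 to 3 for STRIPAK, 1 to 3 and 0 for TEAD and VGLL genes, 5 to 7 and 3 to 6 for signature genes, and 1 to 2 and 0 to 1 for other CCN genes. The difference in log2 ratio was -0.25 to 0.27 for YAP1 to WWTR1, -0.34 to -0.13 for LATS2 to LATS1 and -0.93 to -0.87 for CCN2 to CCN1 over all alternatives.

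The deviations of same-numbered libraries had correlations of 0.04, 0.13 and 0.11, and each library correlated best with its own number. With 3 libraries per group, values this small cannot decide whether same-numbered libraries share more than a number. With the replicate block 2631 genes were higher and 2310 lower, and 3 and 1 of the 9 tested genes. The block differences of the ratios were -0.03, -0.23 and -0.89. The number of fragments limits ANKRD1, and the spread between libraries limits YAP1 and TEAD1.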
